A study of Homo sapiens with 9 samples.

Results

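TMX1 and 9 other genes of thiol-disulfide exchange in the endoplasmic reticulum (ER) are described here in 9 messenger RNA libraries of 786-O cells. The 10 genes are TMX1, TMX2, TMX3, TMX4, TXNDC5, TXNDC12, ERP44, ERO1A, ERO1B and P4HB. They were taken by symbol from a table of 61806 genes, and all 10 were among the 13562 genes that passed the filter on low counts. The set was chosen by a measured value of these libraries, the low level of TMX1 after PARP1 knockdown, so every value of a member in PARP1 knockdown against control is a description and carries no test. Members were tested between TRIM28 knockdown and control, a comparison the choice did not use. It shares the control libraries with the comparison that made the choice, so the test is not independent of the choice.

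786-O is an established human line, derived from renal cancer of the clear cell type, without a functional VHL gene. The labels give 3 libraries to each of 3 groups: a control with the genotype wild type, a TRIM28 knockdown and a PARP1 knockdown. Sample titles name siRNA but another label field names shRNA. The control is named a negative control in 1 place and parental in another, and which reagent was used is uncertain. No further treatment or time point is given, and all 9 libraries carry 1 batch label. All groups come from 1 line, and no label says that replicates were separate cultures, so a p-value reflects the spread among these libraries alone, which may be technical.

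Enzymes of the protein disulfide isomerase (PDI) family carry thioredoxin-like domains, whose paired cysteines make, break and rearrange disulfide bonds in proteins folding in the ER. P4HB is PDI itself and also the beta subunit of collagen prolyl 4-hydroxylase. ERO1A and ERO1B reoxidise PDI with molecular oxygen, and ERP44 binds both oxidases and returns them from the early secretory pathway. The TMX proteins are membrane-anchored relatives, of which TMX1 acts on membrane-bound clients together with the lectin calnexin. TXNDC5 and TXNDC12 are soluble members of the ER lumen. ERO1A is known as a gene raised by hypoxia signalling, which is constitutively active in cells without VHL.

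The shallowest library, PARP1 knockdown replicate 3, held 11963110 counts and the deepest, control replicate 3, held 20224374. TRIM28 averaged 346 ± 33.0 CPM (counts scaled to the library total with TMM factors; SD, n = 3) in control and 52.2 in TRIM28 knockdown. PARP1 averaged 177 ± 23.7 CPM in control and 5.52 in its own knockdown, and 93.8 where TRIM28 was silenced. The 8 renal epithelial markers checked summed to between 357 and 446 FPKM (fragments per kilobase, scaled to the library total) in every library, most of it from KRT8 (101 to 144) and KRT18 (147 to 259). PAX8 lay between 33.1 and 55.1 FPKM, while lower markers of the list varied more, VCAM1 from 3.76 to 24.4, CDH2 from 3.5 to 20.1, HAVCR1 from 1.22 to 7.14 and CDH6 from 0.78 to 4.95. Leukocyte markers summed to at most 0.21 FPKM, endothelial to at most 0.71 and fibroblast and pericyte markers to at most 0.77, with PTPRC and CD3E at 0. Control replicate 3 and PARP1 knockdown replicate 1 differed most from the other libraries of their groups, with chi-square values per degree of freedom of 25.05 and 17.98, and of 44.92 and 48.41. The other pairs within a group lay between 5 and 19.31.

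Upstream sequences are shown for 4 members with different readings: TMX1, with the lowest fold change of the set after PARP1 knockdown, TMX4, another membrane member below control, TMX2, which was above control, and ERO1B, which holds a known ER stress motif. They are RefSeq sequences of GRCh38.p14, written 5' to 3' on the gene's strand and ending before the start of the gene model. Capitals mark CCAAT or CCACG on either strand, so that ATTGG and CGTGG are the reverse forms. The TMX1 stretch is chr14:51239997-51240161 on the plus strand, TMX4 is chr20:8019830-8020011 on the minus strand, TMX2 is chr11:57712343-57712592 on the plus strand and ERO1B is chr1:236282020-236282208 on the minus strand.
TMX1: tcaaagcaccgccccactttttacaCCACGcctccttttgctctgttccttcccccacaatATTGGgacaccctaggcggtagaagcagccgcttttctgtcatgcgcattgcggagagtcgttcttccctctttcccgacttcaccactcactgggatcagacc
TMX4: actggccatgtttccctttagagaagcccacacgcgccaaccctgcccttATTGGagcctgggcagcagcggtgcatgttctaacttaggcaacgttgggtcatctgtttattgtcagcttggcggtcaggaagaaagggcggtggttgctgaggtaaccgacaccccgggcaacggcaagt
TMX2: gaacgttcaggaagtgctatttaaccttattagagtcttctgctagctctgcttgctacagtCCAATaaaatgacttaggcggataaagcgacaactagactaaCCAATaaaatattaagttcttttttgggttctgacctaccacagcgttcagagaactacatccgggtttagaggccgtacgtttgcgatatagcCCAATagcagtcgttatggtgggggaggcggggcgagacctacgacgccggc
ERO1B: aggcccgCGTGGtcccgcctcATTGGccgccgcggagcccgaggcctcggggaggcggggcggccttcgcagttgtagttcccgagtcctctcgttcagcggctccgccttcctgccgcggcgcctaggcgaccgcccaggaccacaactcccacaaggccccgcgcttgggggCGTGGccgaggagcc

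Windows of 300 bases around the RefSeq start matched all 10 members, and 3 motifs were searched in them on both strands. These were the CCAAT box, the short sequence CCACG and the short sequence ACGTG, and the last pair can share 4 letters. CCAAT occurred in 34.6% of all 35116 promoter windows, CCACG in 38.1% and ACGTG in 21.4%. TMX1 held 1 CCAAT and 1 CCACG, TMX2 held 3 CCAAT, and P4HB also held 3 CCAAT. TMX4 held 1 CCAAT and 1 CCACG, the second outside the stretch shown. ACGTG occurred once each in ERO1A, ERP44 and TXNDC12. The joined form, CCAAT with CCACG starting 9 bases after its end, known as the ER stress response element, was found in ERO1B on the reverse strand and in 0.0769% of all windows, 27 of them. These matches are letters in a window and were not set against any binding data.

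The members spanned more than 3 orders of magnitude in control on the FPKM scale, which divides by the summed exon length of each gene. Whether the transcripts present were as long as that sum was not tested. Orders, shares and ratios between genes are therefore approximate and hold on this scale only. P4HB was highest at a mean of 152 FPKM, and its 3 control libraries read 147.27, 146.4 and 161.51 FPKM. TMX2 followed at 95.8 FPKM, with 89.2, 97.06 and 101.0 in the control libraries. TMX1 came next at 12.0 FPKM, and its control range of 8.78 to 15.24 overlapped that of TXNDC12, which averaged 11.2 FPKM. TXNDC12 in turn overlapped ERO1A, at 8.29 FPKM. TMX4 averaged 3.54 FPKM, ERP44 2.17 and TXNDC5 2.03, and the ranges of the last pair overlapped. TMX3 averaged 1.19 FPKM and ERO1B 0.1 FPKM, so that ERO1A was the more abundant of the ERO1 oxidases by far.

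**Figure D1:**
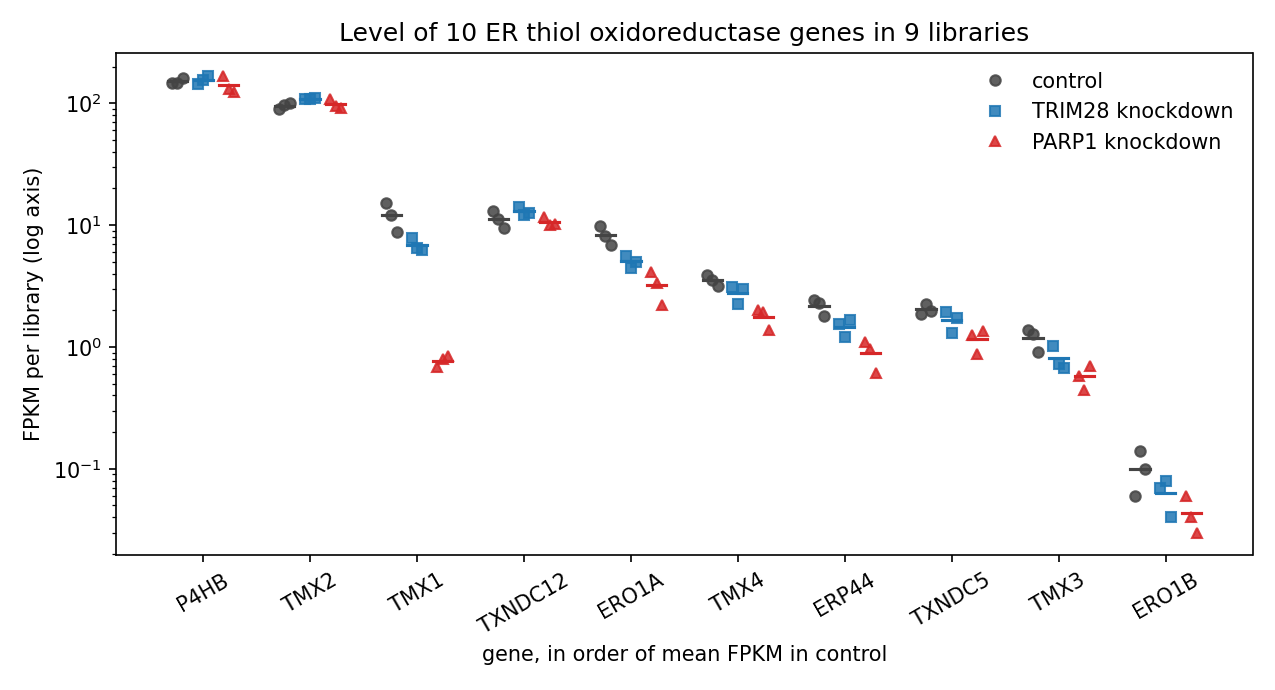
FPKM of each member in each library, on a log axis, with genes ordered by their mean in control; circles are control, squares TRIM28 knockdown and triangles PARP1 knockdown, and short bars are group means of 3 libraries. TMX1 lies at 0.68 to 0.85 FPKM in PARP1 knockdown, below every control library, while P4HB and TMX2 stay near the top in all groups.

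The order shifted around TMX1 and little elsewhere. TMX1 was at place 4 in TRIM28 knockdown at a mean of 6.87 FPKM, below TXNDC12 without overlap. In PARP1 knockdown it was at place 8 with 0.773 FPKM, where its range overlapped those of ERP44, at 0.893 FPKM, and TMX3, at 0.573 FPKM. P4HB stayed first and TMX2 second in all 3 groups.

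TMX1 (ENSG00000139921, GRCh38 chr14:51240162-51257655, plus strand) is the membrane-anchored reductase that gives the set its name. Its control libraries read 61.0, 49.2 and 37.7 CPM, its TRIM28 knockdown libraries 35.7, 30.5 and 28.6 CPM and its PARP1 knockdown libraries 3.25, 4.23 and 4.65 CPM. The 3 groups did not overlap, and the PARP1 knockdown values rest on 49, 50 and 47 reads. In bulk RNA, fewer cells with a transcript and less of it per cell cannot be told apart.

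TMX1 fell in TRIM28 knockdown by 1.56-fold, to 64.1% of control, with a log2 fold change of -0.64 ± 0.17 (SE; edgeR quasi-likelihood test, Benjamini-Hochberg adjusted p = 0.00595). The call was lost without control replicate 1, the library with the highest TMX1, where the log2 fold change was -0.44 and edgeR's adjusted p was 0.105. It was kept in 15 of 17 alternatives, over which the log2 fold change ran from -0.81 to -0.43. With length and GC trends removed it was -0.43, at an edgeR adjusted p of 0.0153. The control libraries of this test also served in the choice of TMX1, so the test is not independent of that choice.

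In PARP1 knockdown the mean TMX1 level was 4.04 ± 0.721 CPM against 49.3 ± 11.6 CPM in control (SD, n = 3), or 8.2%, and the fitted log2 fold change was -3.62 ± 0.2 (SE). This was number 5 from the lowest of the 13562 fold changes, after PARP1 itself at -4.99, RNASEH1 at -4.22, UGT1A1 at -3.94 and RGL1 at -3.83. UGT1A1 and RGL1 were near the detection limit, with mean levels of 0.146 and 0.0844 FPKM, so only PARP1 and RNASEH1 were lower among genes with a mean of at least 1 FPKM. Against TRIM28 knockdown, which shares the PARP1 libraries with the comparison that chose the set, the log2 fold change was -2.98 ± 0.2. The value against control was -3.3 with length and GC trends removed and stayed between -3.74 and -3.41 when any 1 library was left out.

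TMX4, a close relative of TMX1 by family, was the next TMX gene by level on the FPKM scale. It read 22.3, 20.6 and 19.3 CPM in control, 20.1, 15.2 and 19.5 in TRIM28 knockdown and 13.6, 14.7 and 10.7 in PARP1 knockdown. TRIM28 knockdown overlapped control, with a log2 fold change of -0.18 ± 0.16 (edgeR adjusted p = 0.439), and PARP1 knockdown lay below both, with -0.67 ± 0.17 against control. TMX3, an oxidase of the same family, read 8.95, 8.38 and 6.31 CPM in control, 7.47, 5.58 and 4.94 in TRIM28 knockdown and 4.44, 3.81 and 6.13 in PARP1 knockdown. Its TRIM28 knockdown libraries overlapped control at -0.39 ± 0.23 (edgeR adjusted p = 0.208), and all PARP1 knockdown libraries were below the lowest control library, at -0.73 ± 0.24.

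TMX2 differed from the other TMX genes in direction. It lacks the active-site cysteine pair of its relatives and is placed at contacts between ER and mitochondria. TMX2 read 174, 193 and 212 CPM in control, 242, 249 and 245 in TRIM28 knockdown and 252, 249 and 245 in PARP1 knockdown. Every knockdown library was above every control library. TMX2 rose in TRIM28 knockdown by 0.35 ± 0.12 on the log2 scale (edgeR adjusted p = 0.0385), and the value in PARP1 knockdown was 0.36 ± 0.12. The call was kept in 5 of 17 alternatives. It was lost with library totals, at 0.19 (edgeR adjusted p = 0.22), and without any 1 of the 6 libraries compared except control replicate 3, where the values lay between 0.3 and 0.36 (edgeR adjusted p up to 0.176). The call was also lost with no filter on low counts, in every limma fit, and with length, or length and GC, trends removed. On the FPKM scale, which uses library totals alone, PARP1 knockdown overlapped control for TMX2. Its gene model overlaps that of ENSG00000288534 on the same strand, so its reads are less certain.

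The make-up of the membrane-anchored set was read first without TMX2, its most abundant gene. TMX1 held 74.2%, 71.5% and 68.4% of the summed FPKM of TMX1, TMX3 and TMX4 in the control libraries. The shares were 65.5%, 68.3% and 63.1% in TRIM28 knockdown, and 20.8%, 24.9% and 29.0% in PARP1 knockdown. The lowest control library and the highest TRIM28 knockdown library were nearly equal, while PARP1 knockdown stood apart. The ratio of TMX1 to TMX4 on the FPKM scale averaged 3.36 ± 0.551 in control (SD, n = 3 in each group). It was 2.49 ± 0.381 after TRIM28 silencing and 0.454 ± 0.145 after PARP1 silencing, so that TMX4 was the more abundant of the pair in the last group.

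**Figure D2:**
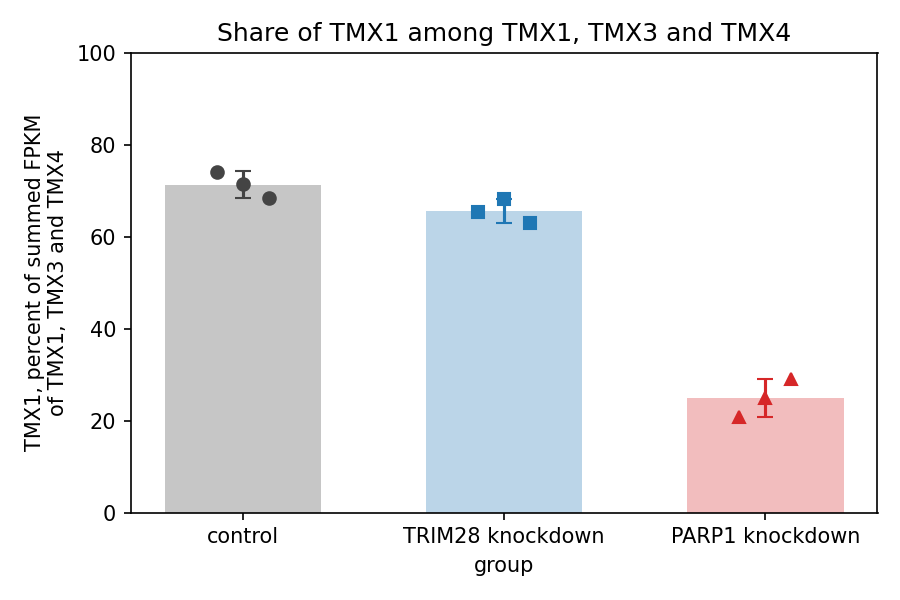
TMX1 as a percent of the summed FPKM of TMX1, TMX3 and TMX4; bars are means of 3 libraries, error bars SD and points single libraries. The mean share was 71.4% in control, 65.6% with TRIM28 silenced and 24.9% with PARP1 silenced. TMX2, the most abundant TMX gene, is not in the sum.

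Of the oxidases, ERO1A carried nearly all of the signal. It read 64.9, 54.5 and 47.9 CPM in control, 41.7, 34.7 and 37.3 in TRIM28 knockdown and 32.0, 29.0 and 19.9 in PARP1 knockdown. The 3 groups did not overlap. ERO1A fell in TRIM28 knockdown to 68.0% of control, a log2 fold change of -0.56 ± 0.16 (edgeR adjusted p = 0.0117), and stood at 48.3% of control, or -1.04 ± 0.16, in PARP1 knockdown. Its call in TRIM28 knockdown was lost with the length trend removed, at -0.3 (edgeR adjusted p = 0.135), and with length and GC trends removed, at -0.13 (edgeR adjusted p = 0.556). It was also lost without control replicate 1, at -0.41 (edgeR adjusted p = 0.128), TRIM28 knockdown replicate 2, at -0.47 (edgeR adjusted p = 0.0874), or TRIM28 knockdown replicate 3, at -0.52 (edgeR adjusted p = 0.0519).

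ERO1B was close to the detection limit, with 18, 39 and 31 reads in control, 16, 15 and 10 in TRIM28 knockdown and 15, 9 and 5 in PARP1 knockdown. Scaled for depth, these were 0.866, 1.89 and 1.43 CPM, then 0.996, 1.2 and 0.603, then 0.994, 0.761 and 0.495, and all groups overlapped. A change was not detectable at this depth in TRIM28 knockdown, at -0.6 ± 0.43 (edgeR adjusted p = 0.31), and the value in PARP1 knockdown was -0.85 ± 0.45. The gene overlaps GPR137B on the opposite strand, and whether the counting used strand is not stated.

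ERP44, which retains the ERO1 oxidases, read 30.1, 28.7 and 23.6 CPM in control, 21.7, 17.5 and 23.2 in TRIM28 knockdown and 16.2, 16.0 and 10.2 in PARP1 knockdown. Its groups did not overlap. The difference in TRIM28 knockdown missed the threshold, at -0.4 ± 0.17 (edgeR adjusted p = 0.0852), and the value in PARP1 knockdown was -0.95 ± 0.18. In a fit of control and TRIM28 knockdown alone ERP44 passed, at -0.39 (edgeR adjusted p = 0.0301).

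P4HB, the enzyme that the oxidases serve, overlapped control in both knockdowns. It read 1423, 1441 and 1676 CPM in control, 1587, 1772 and 1843 in TRIM28 knockdown and 1920, 1677 and 1640 in PARP1 knockdown. Its log2 fold changes were 0.2 ± 0.13 in TRIM28 knockdown (edgeR adjusted p = 0.258) and 0.21 ± 0.13 in PARP1 knockdown. The ratio of P4HB to ERO1A on the FPKM scale averaged 18.8 ± 4.47 in control (SD, n = 3 in each group), 31.3 ± 4.79 after TRIM28 silencing and 45.2 ± 9.18 after PARP1 silencing. P4HB has an exon length of 11132 bases, and with the length trend removed it passed in TRIM28 knockdown, at 0.51 (edgeR adjusted p = 0.00643), as it did with both trends removed, at 0.32 (edgeR adjusted p = 0.0387). With library totals alone for scaling, its value in PARP1 knockdown turned to -0.11.

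TXNDC5 and TXNDC12, the soluble members, went different ways. TXNDC5, a PDI with several thioredoxin domains, read 7.02, 8.71 and 8.06 CPM in control, 8.34, 5.74 and 7.41 in TRIM28 knockdown and 5.63, 4.4 and 6.93 in PARP1 knockdown. Its gene model overlaps a read-through gene with BLOC1S5. It overlapped control in TRIM28 knockdown, at -0.14 ± 0.21 (edgeR adjusted p = 0.658), and lay just below it in PARP1 knockdown, at -0.49 ± 0.22. TXNDC12, a small thioredoxin-like protein also called ERP18, read 32.2, 28.6 and 25.3 CPM in control, 40.0, 35.5 and 35.7 in TRIM28 knockdown and 34.9, 33.4 and 34.4 in PARP1 knockdown. Its knockdown libraries were all above the highest control library. TXNDC12 rose in TRIM28 knockdown by 0.37 ± 0.14 on the log2 scale (edgeR adjusted p = 0.0485), and the value in PARP1 knockdown was 0.26 ± 0.14. The call was kept in 5 of 17 alternatives. It was lost with library totals, at 0.21 (edgeR adjusted p = 0.328), and without any 1 of the 6 libraries compared, at 0.31 to 0.48 (edgeR adjusted p from 0.0533 to 0.159). The call was also lost with no filter on low counts, in every limma fit and with the length trend removed. The value in PARP1 knockdown turned to -0.07 with library totals. Its gene model overlaps that of KTI12 on the same strand.

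Counted over the 10 members in TRIM28 knockdown, TMX1 and ERO1A fell and TMX2 and TXNDC12 rose, while the other 6 did not pass. Over all genes tested, 17.5% fell, 10.3% rose and 27.8% were called in either direction. The members' counts are therefore near the background in both directions. In CPM, groups did not overlap for 3 members on the lower side, TMX1, ERP44 and ERO1A, and for 2 on the higher side, against 25.3% and 21.2% of all genes. The median log2 fold change was -0.28 over the members and -0.02 over all genes, and 7 members were below 0 against 51.3% of all genes.

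In PARP1 knockdown, 6 members lay below control without overlap in CPM (TMX1, TMX3, TMX4, TXNDC5, ERP44 and ERO1A), where 33.0% of all genes did. TMX2 and TXNDC12 lay above control in CPM, where 30.5% of all genes did. There were 7 members below 0 (52.5% of all genes), and 2 of them, TMX1 and ERO1A, were at a log2 fold change of -1 or less (19.4% of all genes). The median was -0.7 against -0.07 over all genes. Since a value of this comparison chose the set, nothing is read from these counts. Set against each other in the knockdowns, TMX1, TMX4, TXNDC12, ERP44 and ERO1A were lower in PARP1 than in TRIM28 knockdown without overlap (20.7% of all genes) and no member was higher (18.7%).

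**Figure D3:**
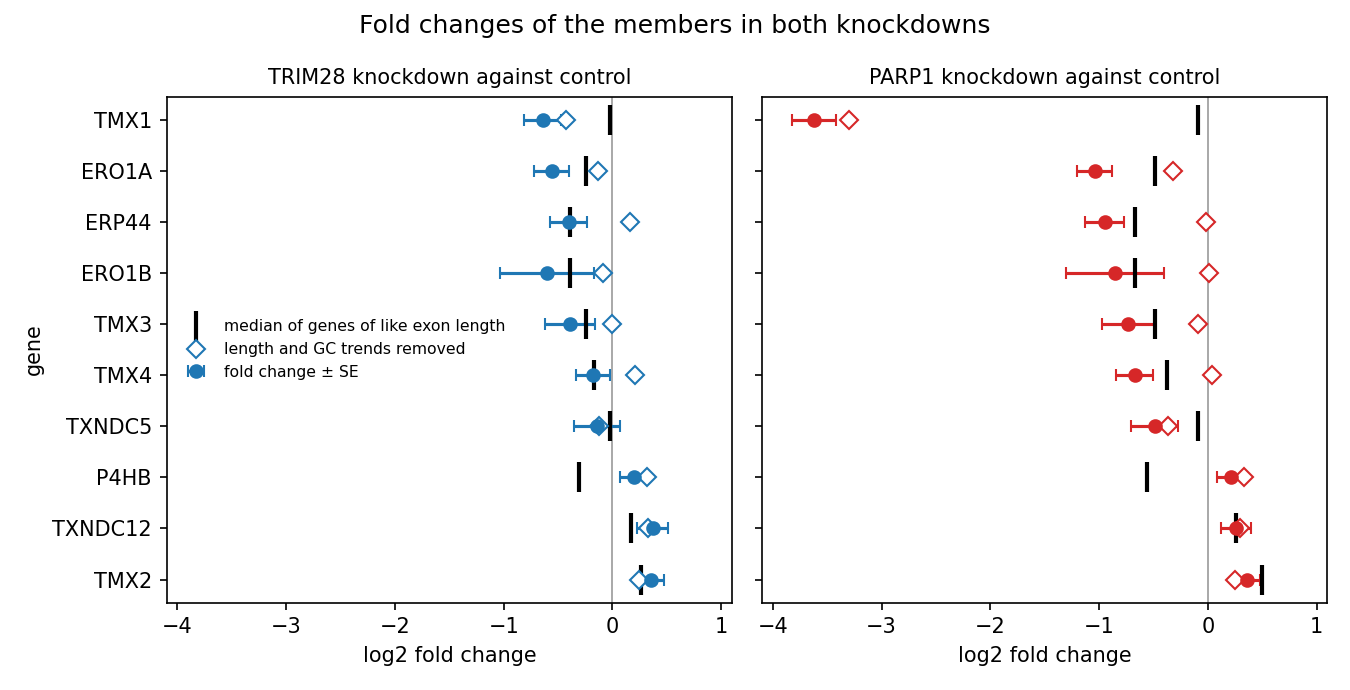
Log2 fold change of each member against control in TRIM28 knockdown (left) and PARP1 knockdown (right); filled circles are fitted values with SE, open diamonds the values with length and GC trends removed, and black ticks the median of tested genes of like exon length. TMX1 stays at -3.3 in PARP1 knockdown after removal of both trends, and ERP44, TMX3, TMX4 and ERO1B move to within 0.1 of 0.

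Exon length moved with the fold changes across the whole table. Genes were split by exon length into 10 classes, and in the class of 7144 to 8765 bases, which holds TMX3 and ERO1A, the median log2 fold change was -0.24 in TRIM28 knockdown and -0.49 in PARP1 knockdown. The class of TMX2, 1647 to 2583 bases, had medians of 0.26 and 0.5. TMX1, at 4608 bases and 34.9% GC, sits in a class with medians of -0.02 and -0.09, far from its own values. With both trends removed, the PARP1 knockdown values were -0.02 for ERP44, -0.09 for TMX3, 0.04 for TMX4, 0.01 for ERO1B and -0.32 for ERO1A, and the median of the members was -0.0. TXNDC5 kept -0.37, and TMX2, TXNDC12 and P4HB kept 0.25, 0.3 and 0.33. In TRIM28 knockdown the median of the members moved to 0.08. What part the length and GC trends have in the members' differences was not tested. For TMX1 the values without them were -3.3 and -0.43.

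The 9 libraries also showed which members varied together, a description over 9 points that share their group means and library scaling. ERP44 correlated with TMX4 at a Pearson r of 0.98 and with ERO1A at 0.97, and TMX4 with ERO1A at 0.94, on log2 CPM. TMX1 correlated with TMX4 at 0.864, with ERP44 at 0.834 and with ERO1A at 0.833. TMX2, P4HB and TXNDC12 ran the other way, at -0.656, -0.548 and -0.268. By likeness to TMX1, TMX4 ranked at 890 among the 8462 genes compared. The 5 genes most like TMX1 were VMP1 (r = 0.990), PAK1IP1 (0.989), SLC35B4 (0.988), PARP1 (0.986) and ECD (0.986). The correlation includes the libraries by which TMX1 was chosen. A high r with PARP1 and other genes low in PARP1 knockdown therefore follows from the choice, and nothing is read from it. VMP1, the nearest, read 116, 107 and 97.2 CPM in control, 110, 95.6 and 95.4 in TRIM28 knockdown and 53.0, 54.5 and 51.9 in PARP1 knockdown.

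Related genes were read from 4 lists. The first held genes of the calnexin cycle, known contacts of TMX proteins, and other genes of ER chaperones, transport and degradation, 20 of 21 genes tested. In this list 9 genes fell and 2 rose in TRIM28 knockdown, with a median of -0.44, and 11 fell and 2 rose in PARP1 knockdown, with a median of -0.77. Over all genes, 17.5% fell and 10.3% rose in TRIM28 knockdown. In PARP1 knockdown, 32.2% of all genes fell, 27.1% rose and 59.3% were called in either direction. CANX, the lectin with which TMX1 acts, read 420, 395 and 249 CPM in control, 153, 133 and 137 in TRIM28 knockdown and 81.7, 95.3 and 87.3 in PARP1 knockdown. No groups overlapped, and CANX fell by 1.33 ± 0.16 and by 2.01 ± 0.16 on the log2 scale (edgeR adjusted p = 2.04e-06 and 4.84e-10). ATP2A2, the SERCA2 calcium pump of the ER, fell by 1.07 ± 0.16 and by 2.01 ± 0.16 (edgeR adjusted p = 2.17e-05 and 4.84e-10), from a mean of 217 CPM in control to 103 and 53.7.

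HSP90B1, the ER chaperone GRP94, fell by 0.89 in TRIM28 knockdown (edgeR adjusted p = 0.000355), a call lost with length and GC trends removed, at -0.31 (edgeR adjusted p = 0.0717). HSP90B1 also fell in PARP1 knockdown, at -1.26 (edgeR adjusted p = 7.43e-07). SEL1L, the adaptor of the ER ubiquitin ligase, fell by 1.70 in PARP1 knockdown (edgeR adjusted p = 1.94e-07). SEL1L also fell in TRIM28 knockdown, at -0.82 (edgeR adjusted p = 0.00289). MAN1B1, a mannosidase that trims misfolded glycoproteins, rose by 0.51 and 1.0 (edgeR adjusted p = 0.00726 and 9.65e-07), though it was not called in TRIM28 knockdown without control replicate 1, at 0.47 (edgeR adjusted p = 0.05). EDEM2, of the same pathway, rose by 0.38 and 0.73 (edgeR adjusted p = 0.0369 and 5.18e-05), and both calls were lost with the trends removed, at 0.03 and 0.09 (edgeR adjusted p = 0.869 and 0.503). The median exon length of this list was 8393 bases. With both trends removed 4 of its genes fell in TRIM28 knockdown and 12 in PARP1 knockdown, and CANX stayed at -0.73 and -1.0.

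**Figure D4:**
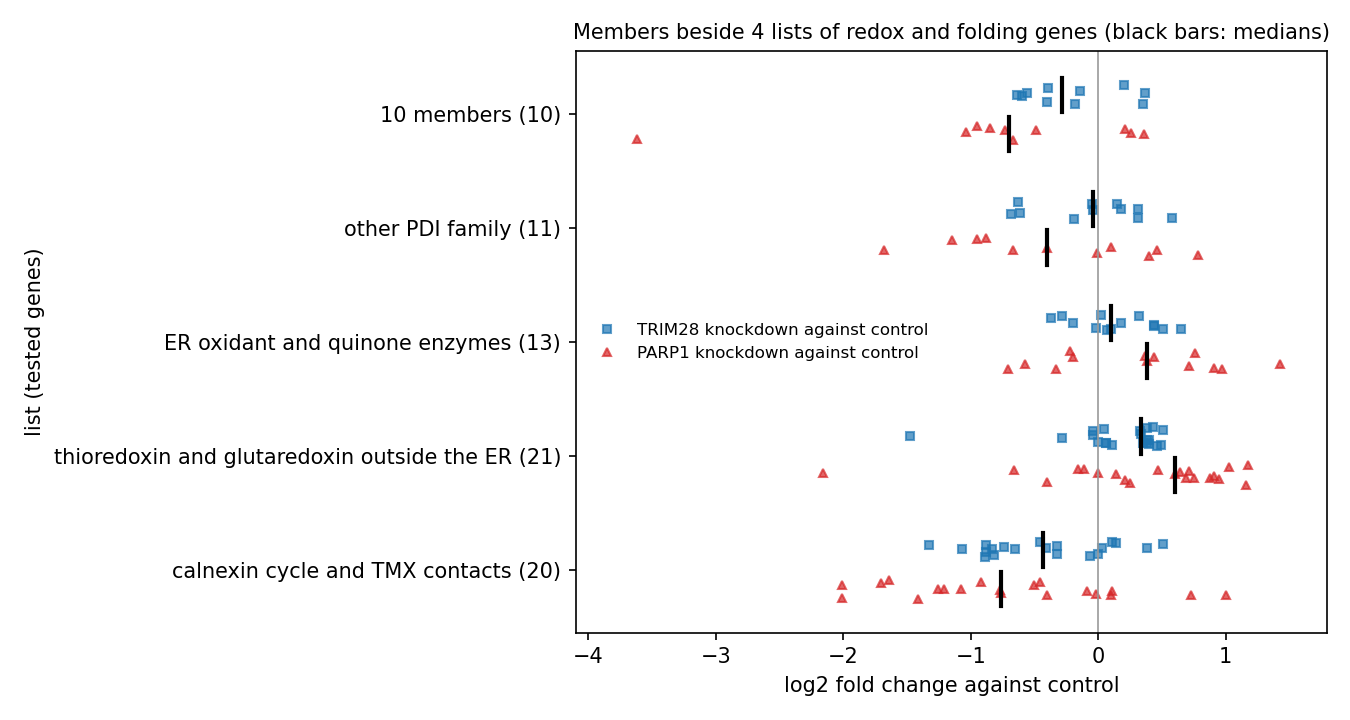
Log2 fold changes of the 10 members and of the tested genes of 4 lists, in TRIM28 knockdown (squares) and PARP1 knockdown (triangles) against control; each point is a gene and black bars are medians. TMX1, chosen for its low value in PARP1 knockdown, lies at -3.62 there, below every gene of the 4 lists. The thioredoxin and glutaredoxin genes outside the ER have the highest medians, 0.34 and 0.6.

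Of the other PDI family genes, 11 of 16 were tested. In TRIM28 knockdown 1 fell and none rose, with a median of -0.04, and in PARP1 knockdown 4 fell and 2 rose, with a median of -0.4. Over all genes, 17.5% fell and 10.3% rose in TRIM28 knockdown, and 32.2% fell and 27.1% rose in PARP1 knockdown. The PARP1 knockdown counts were 2 fell and 3 rose with length and GC trends removed, and 6 fell and 1 rose with library totals. The count that rose in TRIM28 knockdown was 2 by DESeq2, with the 2 groups compared alone, with a replicate block and without control replicate 3, and 1 with the length trend or both trends removed. PDIA4, a PDI with several catalytic domains, read 506, 489 and 554 CPM in control, 493, 498 and 507 in TRIM28 knockdown and 201, 149 and 134 in PARP1 knockdown. Its TRIM28 knockdown libraries overlapped control and its PARP1 knockdown libraries were all far below. PDIA4 fell in PARP1 knockdown by 1.68 ± 0.14 (edgeR adjusted p = 1.17e-09), and by 1.86 with both trends removed, and stood at -0.05 ± 0.14 in TRIM28 knockdown (edgeR adjusted p = 0.827).

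PDIA3, the oxidoreductase that works with calnexin and calreticulin, fell by 0.68 in TRIM28 knockdown and by 1.15 in PARP1 knockdown (edgeR adjusted p = 0.00283 and 1.46e-06). Both calls were lost with the trends removed, at -0.17 and -0.22 (edgeR adjusted p = 0.458 and 0.25). PDIA6 fell by 0.67 in PARP1 knockdown (edgeR adjusted p = 0.000124). CRELD2, a secreted ER stress-inducible protein, rose there by 0.78 (edgeR adjusted p = 1.94e-05). ERP29, a PDI relative without a catalytic cysteine pair, rose by 0.4 (edgeR adjusted p = 0.00914) but not with library totals, at 0.07 (edgeR adjusted p = 0.589).

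The ER oxidant and quinone enzymes comprise selenoproteins, peroxidases, the vitamin K epoxide reductases, QSOX1, QSOX2 and MSRB3, 13 of 14 of them tested. In TRIM28 knockdown 4 rose and none fell, with a median of 0.1, and in PARP1 knockdown 8 rose and 3 fell, with a median of 0.38. Over all genes, 10.3% rose and 17.5% fell in TRIM28 knockdown, and 27.1% rose and 32.2% fell in PARP1 knockdown. The count that rose in TRIM28 knockdown was 1 without control replicate 1 or control replicate 2, 2 without TRIM28 knockdown replicate 1 or its replicate 2, and up to 5 with another library left out. It was 2 by limma with either pseudocount and 0 by limma with no filter. With library totals 2 rose in TRIM28 knockdown, and 5 rose and 5 fell in PARP1 knockdown. SELENOM, an ER selenoprotein with a thioredoxin-like fold, read 63.7, 64.9 and 82.1 CPM in control, 110 in each TRIM28 knockdown library and 134, 203 and 231 in PARP1 knockdown. It rose by 0.65 and 1.43 (edgeR adjusted p = 0.00433 and 7.23e-08), with no overlap between groups, and the first call was lost with the trends removed, at 0.36 (edgeR adjusted p = 0.0732).

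SELENOK, a selenoprotein of ER membrane protein degradation, rose by 0.51 and 0.91 (edgeR adjusted p = 0.00882 and 4.9e-06). PRDX4, the ER peroxiredoxin that passes oxidising equivalents from hydrogen peroxide to PDI, rose by 0.44 in TRIM28 knockdown (edgeR adjusted p = 0.021), though not with library totals, at 0.29 (edgeR adjusted p = 0.0822). PRDX4 also rose in PARP1 knockdown, at 0.76 (edgeR adjusted p = 5e-05). VKORC1 rose by 0.97 in PARP1 knockdown (edgeR adjusted p = 6.63e-06), but stood at 0.14 with the trends removed (edgeR adjusted p = 0.334). The 3 that fell in PARP1 knockdown were GPX8, MSRB3 and VKORC1L1, by 0.71, 0.57 and 0.33 (edgeR adjusted p = 0.00464, 0.00698 and 0.0358). None of these 3 falls held with the trends removed, where the values were -0.31, 0.16 and 0.35, and VKORC1L1 passed in the opposite direction (edgeR adjusted p = 0.0113).

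Thioredoxins, glutaredoxins and peroxiredoxins outside the ER were all tested, 21 genes. In TRIM28 knockdown 8 rose and 1 fell, with a median of 0.34, and in PARP1 knockdown 12 rose and 3 fell, with a median of 0.6. Over all genes, 10.3% rose and 17.5% fell in TRIM28 knockdown, and 27.1% rose and 32.2% fell in PARP1 knockdown. The count that rose in TRIM28 knockdown was 1 with library totals, and it ran from 0 to 11 when 1 library was left out. It was 0 in every limma fit, and 5 with no filter on low counts or with the length trend removed. In PARP1 knockdown 6 fell with library totals and in every limma fit, and 1 fell with length and GC trends removed. TXNRD1, the cytosolic thioredoxin reductase, was the one that fell in both: it read 212, 192 and 125 CPM in control, 67.1, 61.3 and 61.1 in TRIM28 knockdown and 48.6, 39.5 and 30.3 in PARP1 knockdown. No groups overlapped, with log2 fold changes of -1.48 ± 0.17 and -2.16 ± 0.18 (edgeR adjusted p = 1.67e-06 and 6.38e-10), and -1.1 and -1.44 with the trends removed. TXNRD2, the mitochondrial reductase, rose by 0.49 and 1.18 (edgeR adjusted p = 0.019 and 6.14e-07), the first not with library totals, at 0.34 (edgeR adjusted p = 0.0868).

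PRDX5, a peroxiredoxin of mitochondria, peroxisomes and cytosol, read 323, 347 and 404 CPM in control, 522, 523 and 481 in TRIM28 knockdown and 600, 850 and 958 in PARP1 knockdown. It rose by 0.51 and 1.16 (edgeR adjusted p = 0.0131 and 4.58e-07), and both calls were lost with length and GC trends removed, at 0.0 and 0.03 (edgeR adjusted p = 1 and 0.831). TXN2, the mitochondrial thioredoxin, rose by 0.46 in TRIM28 knockdown (edgeR adjusted p = 0.0178), which was lost with the trends removed, at 0.06 (edgeR adjusted p = 0.738). TXN2 also rose in PARP1 knockdown, at 0.95 (edgeR adjusted p = 3.9e-06). TXNDC17 rose by 1.03 in PARP1 knockdown (edgeR adjusted p = 5.77e-06), and by 1.36 with the trends removed. TXNDC17 also rose in TRIM28 knockdown, at 0.43 (edgeR adjusted p = 0.0429). That call was lost without control replicate 1 or 2 and in every limma fit, where no gene of the list rose. TXNIP, the inhibitor of thioredoxin, and GSR, the glutathione reductase, fell in PARP1 knockdown by 0.66 and 0.4 (edgeR adjusted p = 0.00153 and 0.0191), but stood at -0.33 and -0.23 with the trends removed (edgeR adjusted p = 0.0909 and 0.101).

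Some of these calls also rested on single libraries. In TRIM28 knockdown, SELENOK was not called without control replicate 1 or 2, at 0.48 and 0.47 (edgeR adjusted p = 0.0566 and 0.0606). PRDX4 was not called on leaving out control replicate 1, control replicate 2 or TRIM28 knockdown replicate 1 or 2, at 0.38 to 0.46 (edgeR adjusted p up to 0.119). PRDX5 was not called on leaving out control replicate 1, control replicate 2 or TRIM28 knockdown replicate 1, at 0.46, 0.5 and 0.49 (edgeR adjusted p = 0.0787, 0.0541 and 0.0502). TXNRD2 was not called on leaving out control replicate 1, control replicate 2 or TRIM28 knockdown replicate 3, at 0.47, 0.48 and 0.47 (edgeR adjusted p = 0.0882, 0.0741 and 0.0613). TXN2 was not called on leaving out control replicate 1, control replicate 2 or TRIM28 knockdown replicate 2, at 0.4, 0.47 and 0.49 (edgeR adjusted p = 0.112, 0.0678 and 0.0505). EDEM2 kept its call in TRIM28 knockdown without control replicate 3 but lost it on leaving out any of the other 5, at 0.34 to 0.43 (edgeR adjusted p up to 0.16).

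In PARP1 knockdown, ERP29 was not called without PARP1 knockdown replicate 2, at 0.35 (edgeR adjusted p = 0.0514). GSR was not called without control replicate 1 or 2 or PARP1 knockdown replicate 2 or 3, at -0.39 to -0.26 (edgeR adjusted p up to 0.111). VKORC1L1 was not called without control replicate 1 or 2 or PARP1 knockdown replicate 1 or 2, at -0.31 to -0.25 (edgeR adjusted p up to 0.208). Among the genes named from the lists, PDIA3, PDIA6, CRELD2, TXNRD2, TXNDC17 and HSP90B1 each overlap an opposite-strand gene that was tested, and TXNRD1 overlaps one on each strand, so their reads are less certain.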

How the data were processed

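Per the file headers, the authors deposited raw counts of reads per gene and FPKM values per gene, each FPKM being the count over exon length and library total. The submitters' processing notes name STAR 2.7.9a and featureCounts 2.0.1 with GRCh38, and also Trim Galore 0.6.6, FastQC 0.11.9, R 4.0.3 and DESeq2 1.30.0. Libraries were poly(A)-selected and directional, per the labels. Annotation release and strand setting: not given in the sources used here.

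Changes were tested on the deposited counts with edgeR 4.0.16 in R 4.3.3, by the quasi-likelihood test with TMM factors after edgeR's own low-count filter, in 1 fit of 9 libraries in 3 groups with no covariates. It tested 13562 genes, with 6 residual degrees of freedom and a biological coefficient of variation of 0.149. All tests were two-sided, and p-values were adjusted over all genes by the Benjamini-Hochberg method, with a threshold of 0.05. "Called", "rose" and "fell" refer to this threshold. Log2 CPM used a prior count of 2. The members, the 4 lists and the tests were chosen with earlier results of these data known. All members were named, and from each list and knockdown up to 3 genes per direction with the largest change among those called with a mean FPKM of at least 1. The 5 genes most like TMX1 were taken from tested genes with a symbol and a mean FPKM of at least 1.

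Alternatives were DESeq2 1.42.0, its size factors in edgeR, library totals, no filter on low counts, the compared groups alone, a replicate block, limma 3.58.1 on log2(FPKM + 1) or log2(FPKM + 0.1) with or without a mean FPKM minimum of 0.5, and each library left out. Length, or length and GC, trends were removed per library (lowess, span 0.3), with GC content for 98.7% of tested genes. A limma fold change is one of log2(FPKM + pseudocount), which understates changes of low genes. The edgeR script was tested on simulated data first. Libraries of a group were checked for duplicates, and every pair differed by more than sampling noise. Promoter windows came from RefSeq, GRCh38.p14, and stretches shown end before the gene models of GENCODE. Protein sequences were not used here, and 1 item is not reported here.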

Additional observations from a re-analysis of the deposited data

How the results depend on the processing

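TMX1 kept its direction in both knockdowns under every alternative run, and the order of members by level was not recomputed. TMX1 in TRIM28 knockdown ran from -0.78 to -0.44 with 1 library left out and was -0.7 without a call by limma with no filter (adjusted p = 0.0605). In PARP1 knockdown TMX1 ran from -3.74 to -3.41 with 1 library left out, and was -3.96 with library totals, -3.3 with length and GC trends removed and -2.85 by limma on log2(FPKM + 1), with or without the filter. The count of members called in TRIM28 knockdown, 4 in the main fit, was 2 with library totals, without the filter on low counts and by limma with either pseudocount. It was also 2 with the length trend removed, but these were TMX1 and P4HB, and P4HB was not among the 4. The count was 0 by limma with no filter, and between 0 and 3 with 1 library left out. ERO1A was lost by limma with no filter as well, at -0.61 (adjusted p = 0.0996). Signs turned with length and GC trends removed for TMX3 (0.0), TMX4 (0.21) and ERP44 (0.16) in TRIM28 knockdown and for TMX4 (0.04), ERO1B (0.01), MSRB3 (0.16) and VKORC1L1 (0.35) in PARP1 knockdown. They also turned for TMX4 in TRIM28 knockdown with the length trend removed (0.02) and for TXNDC5 without TRIM28 knockdown replicate 2 (0.02; from -0.26 to 0.02 over the libraries left out). The cause of these changes was not tested.

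Library totals moved the median of all genes from -0.02 to -0.18 in TRIM28 knockdown and from -0.07 to -0.39 in PARP1 knockdown, and the share of calls that were higher from 37.0% to 13.7% and from 45.8% to 25.9%. In TRIM28 knockdown that share was 20.0% by limma and 50.8% with both trends removed. TRIM28 knockdown called 3768 genes, against 2353 by limma with a pseudocount of 0.1, 1069 by limma with no filter and 1537 to 4909 with 1 library left out (1537 with control replicate 1 left out, 1855 with control replicate 2 and 2116 with TRIM28 knockdown replicate 2). PARP1 knockdown called 8042, and 6862 to 8295 with 1 library left out. The knockdowns differed in 3407 genes, against 1981 with both trends removed, 63 by limma with no filter and 1654 to 4714 with 1 library left out (1654 for TRIM28 knockdown replicate 1, 2254 for its replicate 3, 1712 for PARP1 knockdown replicate 3, 2149 for its replicate 2).

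A replicate block gave 4085, 8071 and 3662 calls in the 3 comparisons, and TMX1 at -0.63 (edgeR adjusted p = 0.00702) in TRIM28 and -3.61 in PARP1 knockdown. It changed no member's call. Same-numbered libraries correlated between -0.081 and 0.141 in their deviations from group means. The values were all above 0 between a knockdown and control (0.011 to 0.141) and ran from -0.081 to 0.009 between the knockdowns. Pairing by number is not evident, but deviations from means of so few libraries cannot exclude it. ERO1B, with 5 to 39 reads, is limited by depth.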

Other observations

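Around TMX1 on chromosome 14, 22 genes start within 500000 bases of its start in the deposited table, and 4 of them were tested. PYGL, liver glycogen phosphorylase, read 174, 181 and 160 CPM in control, 126, 111 and 126 in TRIM28 knockdown and 89.8, 70.7 and 50.8 in PARP1 knockdown. It fell by 0.5 ± 0.15 and by 1.28 ± 0.16 on the log2 scale (SE; edgeR adjusted p = 0.0168 and 2.44e-07), and no groups overlapped. TRIM9, a ubiquitin ligase, read 17.8, 18.3 and 16.9 CPM in control, 12.6, 8.77 and 12.8 in TRIM28 knockdown and 10.1, 7.7 and 3.07 in PARP1 knockdown, and fell by 0.63 ± 0.24 and by 1.32 ± 0.25 (edgeR adjusted p = 0.0494 and 6.8e-05). In TRIM28 knockdown, PYGL was not called on leaving out control replicate 1, control replicate 2 or TRIM28 knockdown replicate 2, at -0.47, -0.44 and -0.42 (edgeR adjusted p = 0.0821, 0.09 and 0.115), and TRIM9 lost its call on leaving out any 1 of the 6 libraries, at -0.7 to -0.45 (edgeR adjusted p up to 0.236). FRMD6, on the other side of TMX1, did not pass in either, at -0.21 ± 0.15 and 0.02 ± 0.15 (edgeR adjusted p = 0.311 and 0.913). FRMD6-AS2, which overlaps FRMD6 on the opposite strand, did not pass either, at 0.49 ± 0.48 and 0.55 ± 0.49 (edgeR adjusted p = 0.466 and 0.346). TMX1 was lower in PARP1 knockdown, at -3.62 ± 0.2, than any of these 4, but TMX1 was chosen for that low value. ERO1A lies on the same chromosome, and its start is 1399753 bases from that of TMX1.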
